A study of Arabidopsis thaliana with 9 samples.

Results

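The dark-inducible (DIN) genes of Arabidopsis thaliana are nuclear genes whose transcripts accumulate when leaves are kept in darkness or run short of sugar. The 7 described here were DIN2 (AT3G60140), DIN3 (AT3G06850), DIN4 (AT3G13450), DIN6 (AT3G47340, also named ASN1), DIN10 (AT5G20250), DIN11 (AT3G49620) and SEN1 (AT4G35770, also named DIN1). They are 7 of the 37184 genes in each count table, and all 7 were found there by identifier. They were chosen by name after earlier small RNA results of dxo1-2 against Col-0 had been seen, among them those of DIN2 and SEN1. Their differences between the genotypes are therefore given as a description, without a test.

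In darkness a leaf loses its supply of sugar, and the kinase SnRK1, with the catalytic subunits KIN10 and KIN11, turns metabolism from growth to the recovery of carbon and nitrogen. The paired bZIP transcription factors of groups C and S1 act downstream of it, and ASN1 is a well-known target of both. The DIN proteins carry out several of the salvage steps. DIN2 is a beta-glucosidase (BGLU30), DIN10 a member of the raffinose synthase family (RS6), DIN3 and DIN4 are subunits of the mitochondrial complex that breaks down branched-chain keto acids, ASN1 makes asparagine for nitrogen transport, DIN11 is related to dioxygenases that use 2-oxoglutarate, and SEN1 is a senescence-associated gene of the sulfurtransferase family.

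Small RNA was sequenced from 3 dxo1-2 and 3 Col-0 (wild type) libraries, and total RNA without ribosomal RNA from 3 dxo1-2 libraries. dxo1-2 is a mutant of DXO1, whose protein belongs to a family of enzymes working at the 5′ end of RNA, and no other allele was used. All plants were labelled as seedlings of 21 days, kept for 2 days at 4 °C and then grown on soil in a cycle of 16 h light and 8 h dark. The labels used here gave neither the hour of harvest nor the tissue of each extract.

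The RNA-seq libraries held 60138933 to 71210737 counts on genes, the dxo1-2 small RNA libraries 5022945 to 5698185 and the Col-0 small RNA libraries 3976221 to 4393015. Replicates of 1 genotype differed by more than counting noise, with a chi-square per gene of 3.49 to 14.4. The RNA-seq libraries carried leaf markers at a summed 10543 to 12869 CPM (counts per 1000000 gene counts, with the library size of small RNA scaled by TMM), with all 7 markers present. The 5 flower markers summed to 0.599 to 1.13 CPM with AP1 at 0, and the 7 root markers to 0.155 to 0.323 CPM with EXPA7, EXPA18 and PLT1 at 0. In small RNA the leaf markers summed to 1206 to 1480 CPM in dxo1-2 and 425 to 853 CPM in Col-0. CAB2 alone held 15989 of the 24131 marker counts in dxo1-2 and 1859 of 6509 in Col-0, and without it the markers overlapped, at 413 to 519 CPM in dxo1-2 and 310.5 to 592 CPM in Col-0. DXO1 had 108, 76 and 113 RNA-seq counts, which without wild-type RNA-seq checks nothing about the genotype.

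Small RNA counts over DIN2, a beta-glucosidase gene, were far lower in dxo1-2 than in Col-0. DIN2 had 8.05, 5.17 and 6.83 CPM in the dxo1-2 libraries, against 79.6, 74.0 and 60.4 CPM in the Col-0 libraries. All dxo1-2 values lay far below all Col-0 values, and the counts behind them were 52, 28 and 39 against 283, 278 and 224. The means were 6.69 ± 1.44 CPM in dxo1-2 and 71.3 ± 9.85 CPM in Col-0 (SD, n = 3 each), and the fitted log2 fold change was -3.40 ± 0.17 (approximate SE). Of 6530 tested protein-coding genes, 14 had a lower log2 fold change. Col-0 had the higher counts here although the median log2 fold change of protein-coding genes was 0.484.

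ASN1, which moves nitrogen from glutamine into asparagine when carbon is short, had the same direction at a lower depth. It had 1.55, 1.11 and 0.701 CPM in dxo1-2, against 3.94, 5.59 and 7.82 CPM in Col-0. The groups did not overlap, but the counts were 10, 6 and 4 against 14, 21 and 29. With so few dxo1-2 counts ASN1 passed the filter on low counts through Col-0. This bears on the lack of overlap and on its rank among the genes in the fit. The means were 1.12 ± 0.424 CPM in dxo1-2 and 5.78 ± 1.95 CPM in Col-0 (SD, n = 3 each), with a log2 fold change of -2.33 ± 0.42. Another 43 protein-coding genes had a lower log2 fold change.

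DIN10, of the raffinose synthase family, went the other way. It had 5.11, 3.88 and 7.53 CPM in dxo1-2, against 2.53, 2.13 and 2.16 CPM in Col-0. All dxo1-2 libraries lay above all Col-0 libraries, and the third dxo1-2 library was the highest. The means were 5.51 ± 1.86 CPM in dxo1-2 and 2.27 ± 0.224 CPM in Col-0 (SD, n = 3 each), with a log2 fold change of 1.27 ± 0.37. It was 0.99 without the third dxo1-2 library. With 9, 8 and 8 counts in Col-0, DIN10 passed the filter on low counts mainly through dxo1-2. Differences of this size were common, since 2325 protein-coding genes had a higher log2 fold change.

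SEN1, a widely used marker of leaf senescence and darkness, differed least among the genes with enough counts. It had 11.3, 9.98 and 5.78 CPM in dxo1-2, against 13.5, 13.6 and 13.2 CPM in Col-0. The Col-0 libraries lay close together and the dxo1-2 libraries were spread below them, the third one lowest. The means were 9.02 ± 2.88 CPM in dxo1-2 and 13.4 ± 0.187 CPM in Col-0 (SD, n = 3 each), with a log2 fold change of -0.57 ± 0.25. It was -0.33 without the third dxo1-2 library, -0.77 without the first, and 0.0039 when all lines of the tables served as library size.

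**Figure D1:**
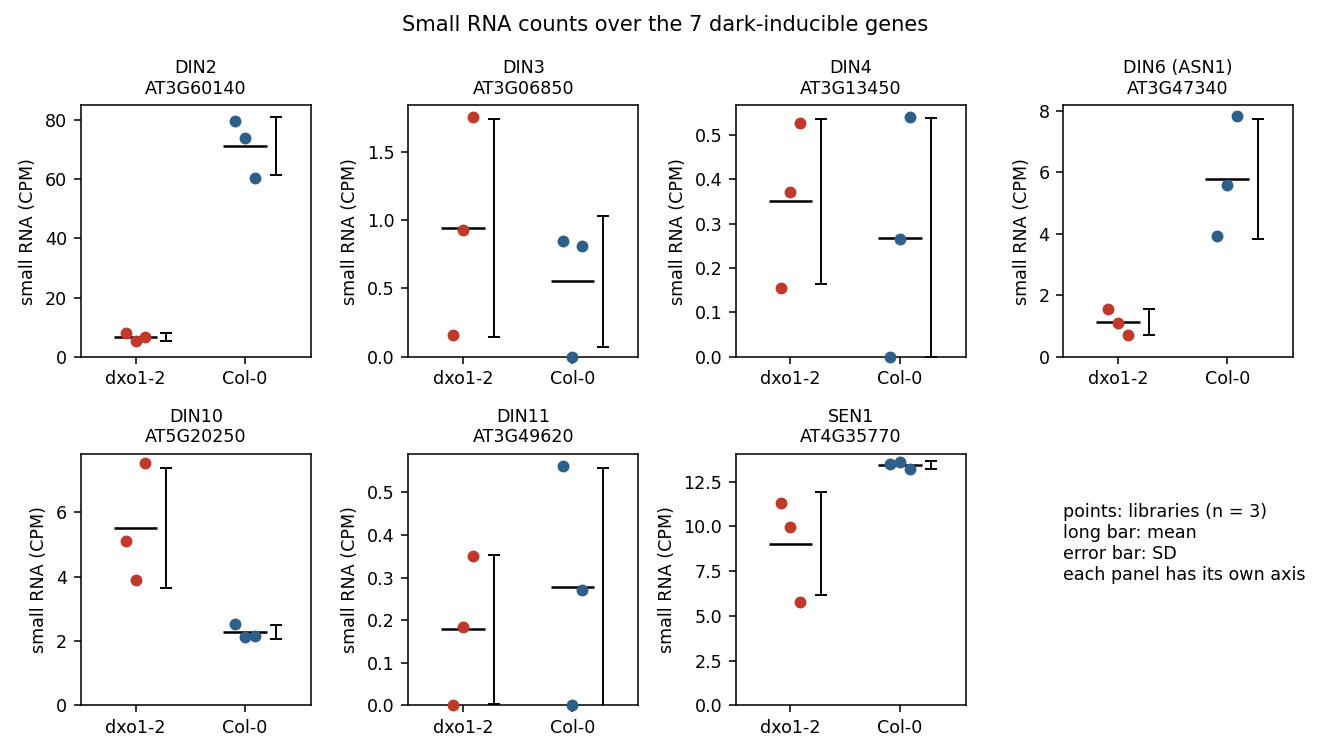
Small RNA level of each of the 7 genes in CPM, with dxo1-2 on the left and Col-0 on the right of each panel. Points are libraries (n = 3), long bars are means and error bars are SD, cut at 0. DIN2, ASN1 and SEN1 lie lower and DIN10 higher in every dxo1-2 library than in any Col-0 library, and DIN3, DIN4 and DIN11 rest on a few counts.

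The other 3 genes had too few small RNA counts for the fit. DIN3, the acyltransferase subunit of the branched-chain keto acid dehydrogenase, had 1, 5 and 10 counts in dxo1-2 and 3, 0 and 3 in Col-0. The depth-scaled ratio of the summed counts, 16 in dxo1-2 over 6 in Col-0, was 1.67 with an exact binomial 95% interval of 0.622 to 5.22, which covers counting error only. DIN4, the beta subunit of the decarboxylase in the same complex, had 1, 2 and 3 counts in dxo1-2 and 0, 1 and 2 in Col-0, a ratio of 1.25 (0.268 to 7.75). DIN11 had 0, 1 and 2 counts in dxo1-2 and 2, 0 and 1 in Col-0, at the limit of 3 counts in each group, so no ratio is given. A count of 0 in a Col-0 library still allows 0.798 to 0.843 CPM, and in the first dxo1-2 library 0.465 CPM. Differences of a few fold in these genes were not detectable at this depth.

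The filter on low counts thus kept 4 of the 7 genes among 11534 genes in all. In 3 of the 4 genes every dxo1-2 library lay below every Col-0 library, and in 1 above, against 27.1% and 31.1% of all tested genes. These counts describe genes chosen with the contrast in view, and nothing is read from them. The 4 genes differed in both directions. The log2 fold changes relative to the median of all tested genes were -3.38 for DIN2, -2.31 for ASN1, 1.29 for DIN10 and -0.55 for SEN1. A change of library size moves all genes alike and leaves these differences as they are by construction. Without the filter on low counts, which changes that median, they were -3.65, -2.58, 1.01 and -0.82.

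**Figure D2:**
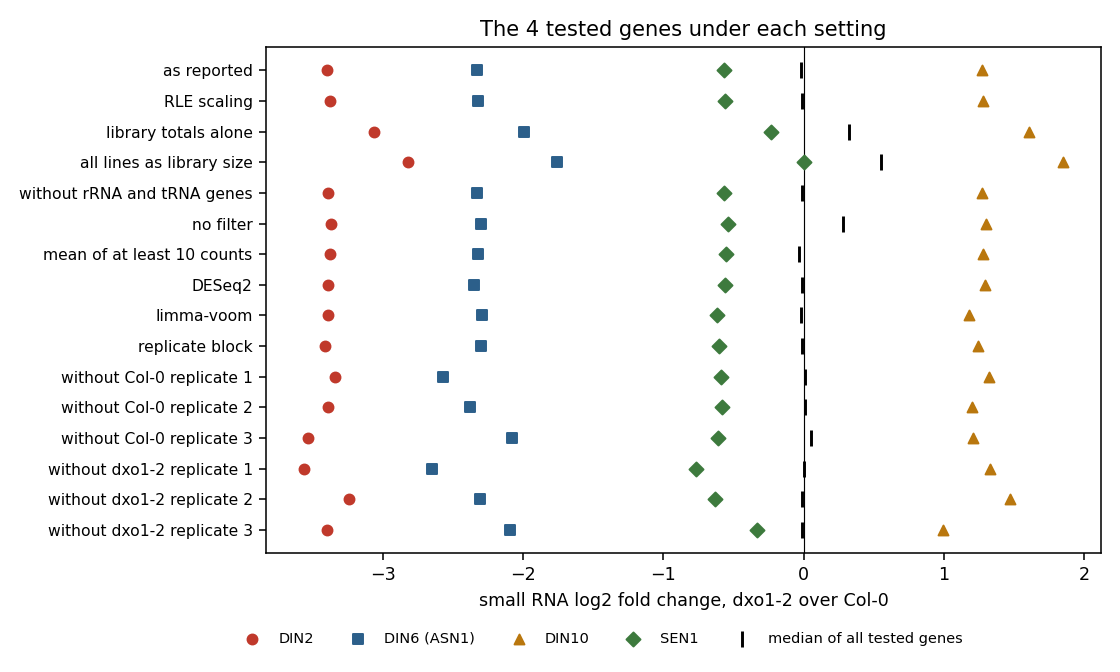
Small RNA log2 fold change, dxo1-2 over Col-0, of the 4 tested genes (x axis) under each setting of the processing (rows), with the median of all tested genes as a tick. DIN2 lies between -3.56 and -2.82, ASN1 between -2.65 and -1.76 and DIN10 between 0.99 and 1.85, while SEN1 reaches 0.0039 with all lines as library size.

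Overlapping genes bear on 4 of the 7. DIN10 overlaps AT5G20260 in the RefSeq table, which was not tested and had 10, 5 and 15 small RNA counts in dxo1-2 and 3, 3 and 3 in Col-0. DIN3 overlaps AT3G06840, which had 52 counts in dxo1-2 and 4 in Col-0 and rose (log2 fold change 2.94 ± 0.56, edgeR adjusted p = 0.00102). DIN4 overlaps TBP1 (AT3G13445), with 16 counts in dxo1-2 and 7 in Col-0, and ASN1 overlaps AT3G47341, with 3 and 0. These partners were named after their values were seen. The sources used here do not say whether the small RNA counting used the strand, and reads of a gene cannot be told apart from reads of its partner with certainty. DIN2, DIN11 and SEN1 overlap no annotated gene.

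The 2 nearest annotated genes on each side of the 7 were read in the same way. Of 28 such neighbours 26 were in the tables and 9 were tested, of which 4 rose and 1 fell. Among all tested genes 49.8% passed the edgeR test at an adjusted p of 0.05, 26.8% as higher and 23.0% as lower in dxo1-2, so calls among the neighbours were about as frequent as elsewhere. The 4 that rose were AT3G06840, AT3G06868, AT3G49640 and AT4G35750. Their Col-0 counts summed to only 4, 1, 3 and 17, so the filter admitted them through dxo1-2. Nothing is read from their direction. The neighbours of DIN2 carried few small RNAs. BGLU16 (AT3G60130) had 21 counts in dxo1-2 and 15 in Col-0, BGLU27 (AT3G60120) 4 and 2, and AT3G60150 4 and 2. With 2 Col-0 counts at BGLU27 and AT3G60150, a drop as large as that at DIN2 could not have been seen there. At BGLU16 it was not seen, from 15 Col-0 counts, and the difference between the loci was not tested. Beside ASN1, the pseudogenes AT3G47330 and AT3G47320 carried 305 ± 21.5 and 84.8 ± 8.46 CPM in dxo1-2, against 345 ± 32.8 and 86.1 ± 15.4 CPM in Col-0 (SD, n = 3 each), and neither passed the test (edgeR, adjusted p = 0.0937 and 0.898). Beside DIN4, ECT2 (AT3G13460), a reader of methylated adenosine in mRNA, fell to 13.7 ± 2.31 CPM in dxo1-2, against 20.2 ± 2.07 CPM in Col-0 (edgeR, adjusted p = 0.0202). Its log2 fold change of -0.56 ± 0.18 depends on the scaling. SEN1, at a similar -0.57, came to 0.00 with all lines as library size, a change that moves all genes alike.

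The genes with a small RNA profile closest to DIN2, by Euclidean distance of log2(CPM + 1) over the 6 libraries, were AT5G39160 (distance 1.15), GER2 (AT5G39190, 1.20) and AT3G25510 (1.33). GER2 encodes a germin-like protein. It had 10.8 ± 1.98 CPM in dxo1-2 and 63.1 ± 12.1 CPM in Col-0, and AT5G39160 had 10.4 ± 2.20 and 61.9 ± 11.3 CPM (SD, n = 3 each). These close values can come from shared reads. For SEN1 the closest were AT5G04815 (0.323), AT1G43120 (0.378) and AT3G30755 (0.466), whose RNA-seq means were 0.00468, 0 and 0 CPM.

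In RNA-seq of dxo1-2 all 7 genes were detected, and they differed in how steady they were across the libraries. DIN3 had 18.4, 18.8 and 19.2 CPM and DIN4 had 16.1, 17.3 and 16.1 CPM in replicates 1, 2 and 3. These subunits of 1 complex varied by 2.22% and 4.50% of their means (coefficient of variation). ASN1 had 70.6, 93.8 and 96.1 CPM, with replicate 1 lowest.

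DIN10 had 41.3, 43.1 and 26.1 CPM in RNA-seq and SEN1 had 20.5, 23.7 and 16.4 CPM. In both the third library was lowest. DIN2 had 1.11, 1.88 and 5.29 CPM, from 79, 113 and 341 counts, and DIN11 had 0.183, 0.0665 and 0.388 CPM, from 13, 4 and 25 counts. In both the third library was highest, 4.77-fold above the lowest for DIN2 and 5.83-fold for DIN11. The third library was the highest of the 3 for 4 genes and the lowest for 3, so the replicates did not shift all the genes 1 way. BT2 (AT3G48360), named after its values were seen, also stood apart there, with 33.5, 30.7 and 9.96 CPM.

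**Figure D3:**
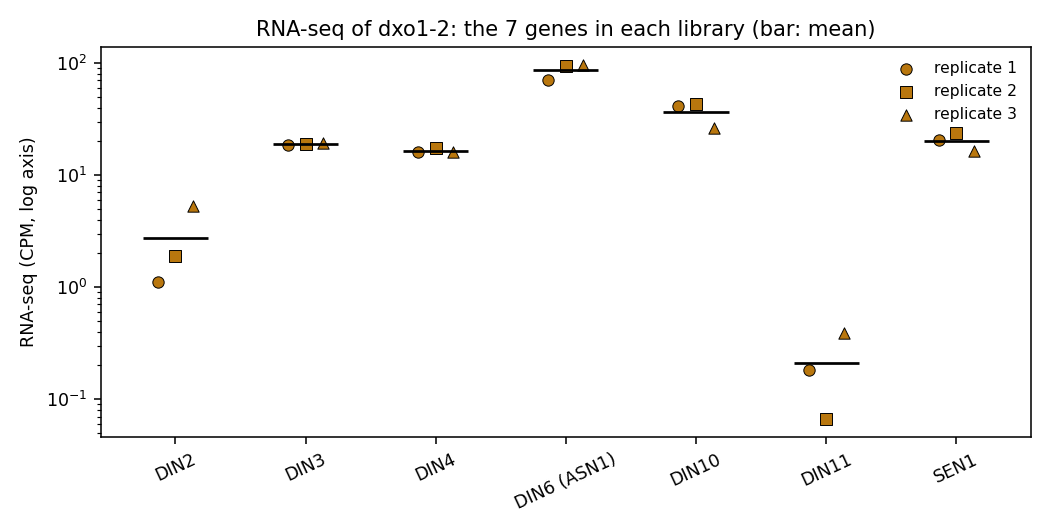
RNA-seq level of each of the 7 genes in the 3 dxo1-2 libraries, in CPM on a log axis, with symbols for replicates and bars for means. DIN3 and DIN4 are tight, DIN2 and DIN11 are spread over several fold with replicate 3 highest, and heights are not comparable between genes because they are not per length.

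Set against the RNA-seq level of the same gene, where gene length drops out, small RNA was most prominent at DIN2. The ratio of mean small RNA CPM to mean RNA-seq CPM in dxo1-2 was 2.42 for DIN2, above 94.9% of the 19708 protein-coding genes with a mean of at least 10 RNA-seq counts. DIN2 rested on the third RNA-seq library, and without it the ratio was 4.47 (above 96.7%), a setting chosen after the data were seen. It was 0.840 for DIN11, though from 3 small RNA counts, and 1.43 without that library. It was 0.446 for SEN1 (above 81.3%). DIN10 at 0.149 lay nearer the median of 0.0932 (above 62.6%). DIN3 at 0.0502 lay above 30.0% of genes, DIN4 at 0.0212 above 9.12% and ASN1 at 0.0129 above 4.60%. ASN1 thus carried few small RNA counts for its transcript level, and DIN2 many even after its lower value in dxo1-2. The ratio for Col-0 was not analysed here.

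**Figure D4:**
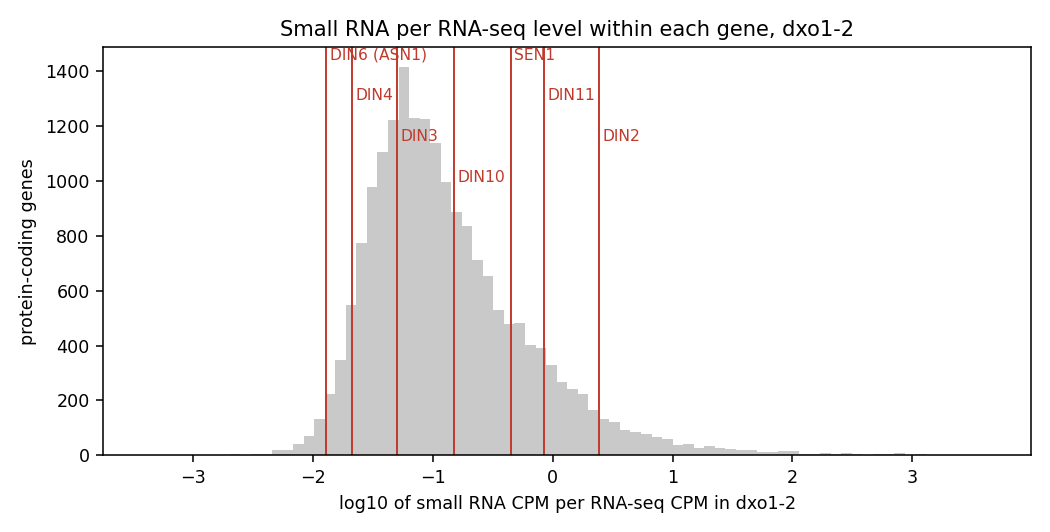
Distribution over protein-coding genes of log10 of the ratio of small RNA CPM to RNA-seq CPM in dxo1-2 (x axis; number of genes on the y axis; genes without small RNA counts left out), with lines for the 7 genes. ASN1 and DIN4 lie at the low end, DIN10 near the middle and DIN2 at 2.42 in the upper tail.

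Several other beta-glucosidase genes had lower small RNA levels in dxo1-2 as well. Of 46 family members beside DIN2, 15 were tested, 7 fell (46.7%) and 1 rose. Over all tested genes 23.0% were lower, and over protein-coding genes 17.1% were lower and 40.5% higher. The family's median log2 fold change was -0.834, against -0.0189 over all tested genes and 0.484 over protein-coding genes. BGLU29 (AT2G44470) had 1.70, 1.11 and 1.05 CPM in dxo1-2, against 16.6, 18.1 and 17.8 CPM in Col-0 (log2 fold change -3.72 ± 0.28, edgeR adjusted p = 6.0e-07). BGLU28 (AT2G44460) had 0.774, 0.554 and 0 CPM in dxo1-2, against 5.06, 5.32 and 5.12 CPM in Col-0 (-3.44 ± 0.53, adjusted p = 2.4e-04). In both the groups lay far apart with tight Col-0 values. The dxo1-2 counts were 11, 6 and 6 for BGLU29 and 5, 3 and 0 for BGLU28. Both therefore entered the test through their Col-0 counts. The share of 46.7% includes them, so it describes the tested genes only and nothing is read from it about the family.

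BGLU28 and BGLU29 lie in 1 gene array with BGLU15, BGLU17 and PEN2. There BGLU15 had 1.91 ± 0.541 CPM in dxo1-2 and 3.46 ± 0.951 CPM in Col-0 (adjusted p = 0.0929), PEN2, a myrosinase of defence, had 3.87 ± 0.654 and 3.98 ± 1.46 CPM (adjusted p = 0.926), and BGLU17 had 7 and 12 counts and was not tested. The members that fell were of 2 kinds by their RNA-seq level. BGLU12, BGLU14, BGLU28 and BGLU29 stood under 1 CPM in dxo1-2 RNA-seq, with BGLU29 at 0 in all 3 libraries, while the myrosinase genes TGG1 and TGG2 and the abscisic acid glucosidase gene BGLU18 stood at 809.8, 398 and 202 CPM. TGG1 had 9.84 ± 4.21 CPM of small RNA in dxo1-2 and 30.1 ± 20.0 CPM in Col-0. For TGG1, TGG2 and BGLU18 the Col-0 values were widely spread, with Col-0 replicate 3 highest. In Col-0 replicates 1, 2 and 3 TGG1 had 20.2, 17.0 and 53.1 CPM. TGG2 had 9.84, 5.85 and 18.3 CPM there, and BGLU18 had 8.15, 4.79 and 20.0 CPM. The groups did not overlap in any of these genes, as in 27.1% of all tested genes, where every dxo1-2 library lay below every Col-0 library. The gap was narrow for TGG1, at most 14.4 CPM in dxo1-2 against at least 17.0 CPM in Col-0. It was narrow too for BGLU18, at 4.06 against 4.79 CPM. The lower members numbered 6 with library totals alone or with all lines as library size, and BGLU21, the one that rose, lost its call without Col-0 replicate 1 or 2 or dxo1-2 replicate 1 or 3. BGLU21, with 4, 9 and 16 counts in Col-0, entered the test mainly through dxo1-2. BGLU18, with 18, 22 and 10 counts in dxo1-2, entered it mainly through Col-0. BGLU genes are related copies and can share reads.

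Upstream, the tested C and S1 bZIP genes all rose. Of 9 genes 4 were tested and 4 were higher, with a median log2 fold change of 4.20, where 26.8% of all tested and 40.5% of protein-coding genes were higher. BZIP53 (AT3G62420) rose to 99.3 ± 10.8 CPM in dxo1-2, against 5.81 ± 1.77 CPM in Col-0 (SD, n = 3 each; log2 fold change 4.09 ± 0.17, edgeR adjusted p = 3.3e-09), and bZIP2 (AT2G18160) had a log2 fold change of 8.24 ± 0.20. The others were bZIP11 (AT4G34590, GBF6 in RefSeq), at 60.2, 72.6 and 63.9 CPM in dxo1-2 against 2.25, 4.26 and 3.24 CPM in Col-0, and bZIP44 (AT1G75390), at 13.4 ± 2.35 CPM in dxo1-2 and 0.895 ± 0.662 CPM in Col-0. With 1, 6 and 3 counts in Col-0, bZIP44 entered the test through its dxo1-2 counts. bZIP11, with 8, 16 and 12 counts in Col-0, entered it mainly through dxo1-2. The 4 higher among 4 tested therefore do not stand for the list. bZIP1 (AT5G49450), with 48 counts in dxo1-2 and 9 in Col-0, the group C genes and the SnRK1 subunit genes did not pass the filter, and KIN10 had 29.4, 27.0 and 27.5 CPM in RNA-seq.

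In the list of SnRK1 and trehalose-phosphate signalling 3 of 12 genes were tested, 1 rose and 0 fell, with a median of 0.468. TPS5 (AT4G17770), a trehalose-phosphate synthase-like regulator that overlaps another gene, had 3.67 ± 0.851 CPM in dxo1-2 and 1.54 ± 1.09 CPM in Col-0 (edgeR, adjusted p = 0.0476). This call was lost when any dxo1-2 library, or Col-0 replicate 1 or 2, was left out (adjusted p = 0.0764 to 0.192), and with DESeq2 (0.0948). TPS5 had 5, 2 and 10 counts in Col-0 and entered the test mainly through dxo1-2. Its relative TPS8 (AT1G70290) had 2.26 ± 0.618 CPM in dxo1-2 and 1.63 ± 0.926 CPM in Col-0 and did not pass (adjusted p = 0.421).

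Of 13 other genes of darkness and starvation 8 were tested, 3 rose and 1 fell, with a median of 0.672. AT1G80440, the Kelch F-box gene KFB20, rose to 4.33 ± 0.822 CPM in dxo1-2, against 1.63 ± 0.229 CPM in Col-0 (edgeR, adjusted p = 0.00823). With 5, 7 and 6 counts in Col-0, it entered the test through its dxo1-2 counts. The dormancy-associated gene DRM2 (AT2G33830) fell to 2.65 ± 1.39 CPM in dxo1-2, against 10.5 ± 7.59 CPM in Col-0 (edgeR, adjusted p = 0.00666). Its Col-0 spread was wide, at 5.06, 7.18 and 19.1 CPM in replicates 1, 2 and 3. With 27, 8 and 13 counts in dxo1-2, DRM2 entered the test mainly through Col-0. Of the 8 tested, 37.5% were higher and 12.5% lower, against 26.8% and 23.0% of all tested genes. The higher genes, which included BXL1 and BT2, numbered 1 without Col-0 replicate 2 or dxo1-2 replicate 1, and 5 with all lines as library size. The groups of BT2 overlapped, with 7.21 CPM in dxo1-2 replicate 2 and 7.82 CPM in Col-0 replicate 3. The lower genes numbered 2 without Col-0 replicate 2 and in each fit that left out a dxo1-2 library. DIN9 (AT1G67070), a phosphomannose isomerase gene of the same naming series, was not tested and had 3.21 ± 0.334 CPM in RNA-seq.

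Few of the genes that act beside DIN3 and DIN4 in branched-chain amino acid breakdown passed the filter. Of 17 genes 2 were tested, 1 fell and 0 rose, with a median of -0.111. The one that fell, the hydroxymethylglutaryl-CoA lyase gene AT2G26800, had 65.9 ± 8.42 CPM in dxo1-2 and 92.3 ± 13.5 CPM in Col-0 (log2 fold change -0.48 ± 0.12, edgeR adjusted p = 0.00622), which became 0.09 when all lines served as library size and lost its call with library totals alone. The lipoamide dehydrogenase gene mtLPD1 (AT1G48030) had 4.26 ± 0.876 CPM in dxo1-2 and 3.53 ± 0.754 CPM in Col-0 (adjusted p = 0.542), and it passed as higher with all lines as library size (0.83, adjusted p = 0.0458). IVD, the next dehydrogenase of leucine breakdown, had 12.2 ± 1.26 CPM in RNA-seq.

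Around ASN1, 6 of 13 genes of asparagine and ammonium assimilation were tested, 0 rose and 1 fell, with a median of -0.227. GS2 (AT5G35630), the plastid glutamine synthetase, had 11.8 ± 2.97 CPM in dxo1-2 and 22.9 ± 12.1 CPM in Col-0 (edgeR, adjusted p = 0.0254). Its groups overlapped, with 14.0 CPM in dxo1-2 replicate 2 and 13.0 CPM in Col-0 replicate 2. The call was lost without Col-0 replicate 3 or dxo1-2 replicate 3 (adjusted p = 0.126 and 0.112), and with library totals alone or all lines as library size. GLT1 (AT5G53460), which overlaps another gene, did not pass (log2 fold change -0.28 ± 0.25, adjusted p = 0.367), and its value was 0.29 with all lines as library size and 0.06 with library totals alone.

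Of 10 raffinose and galactinol genes 1 was tested, SIP2 (AT3G57520), with 5.24 ± 0.972 CPM in dxo1-2 and 2.98 ± 1.66 CPM in Col-0 (edgeR, adjusted p = 0.102). It passed with all lines as library size (0.00641), with library totals alone (0.0155) and when Col-0 replicate 3 was left out (0.0160). Of 20 autophagy genes 2 were tested and 1 rose, AT3G59950, an ATG4-type protease gene that overlaps other genes (adjusted p = 0.0394), a call lost with DESeq2 (0.0800) and when any dxo1-2 library, or Col-0 replicate 2 or 3, was left out. With 12, 7 and 4 counts in Col-0, AT3G59950 entered the test mainly through dxo1-2. APG5 (AT5G17290) did not pass (adjusted p = 0.183), its log2 fold change being 0.82 ± 0.49, but passed with all lines as library size (1.38, adjusted p = 0.0215). None of the 4 other sulfurtransferase genes, relatives of SEN1, was tested, and they held 77 counts in dxo1-2 and 31 in Col-0.

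Of 16 genes of leaf senescence and chlorophyll breakdown 3 were tested, and 3 rose, with a median of 2.62, where 26.8% of all tested and 40.5% of protein-coding genes were higher. Their Col-0 counts were low, 4, 3 and 8 for SAG21, 5, 2 and 1 for WRKY53 and 5, 7 and 11 for NYC1, so the filter admitted them mainly through dxo1-2. SAG21 (AT4G02380), which overlaps another gene, rose to 27.4 ± 7.65 CPM in dxo1-2, against 1.36 ± 0.710 CPM in Col-0 (edgeR, adjusted p = 9.9e-07). WRKY53 (AT4G23810), a transcription factor of early senescence that also overlaps another gene, rose to 4.64 ± 1.93 CPM in dxo1-2, against 0.736 ± 0.595 CPM in Col-0 (adjusted p = 0.00250), and the chlorophyll b reductase gene NYC1 was the third. The higher genes numbered 2 without dxo1-2 replicate 2 or 3. SAG12, the marker of developmental senescence, was at 0 in all 3 RNA-seq libraries, and SAG13 stood at 7.26, 7.75 and 12.5 CPM. Over all lists 44 of 160 genes were tested, 13 rose (29.5%) and 10 fell (22.7%), with a median of 0.178. These shares were close to the 26.8% and 23.0% of all tested genes, and 8 rose without Col-0 replicate 2 or dxo1-2 replicate 3. The filter can admit a gene through 1 genotype alone, so these counts do not stand for whole lists.

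**Figure D5:**
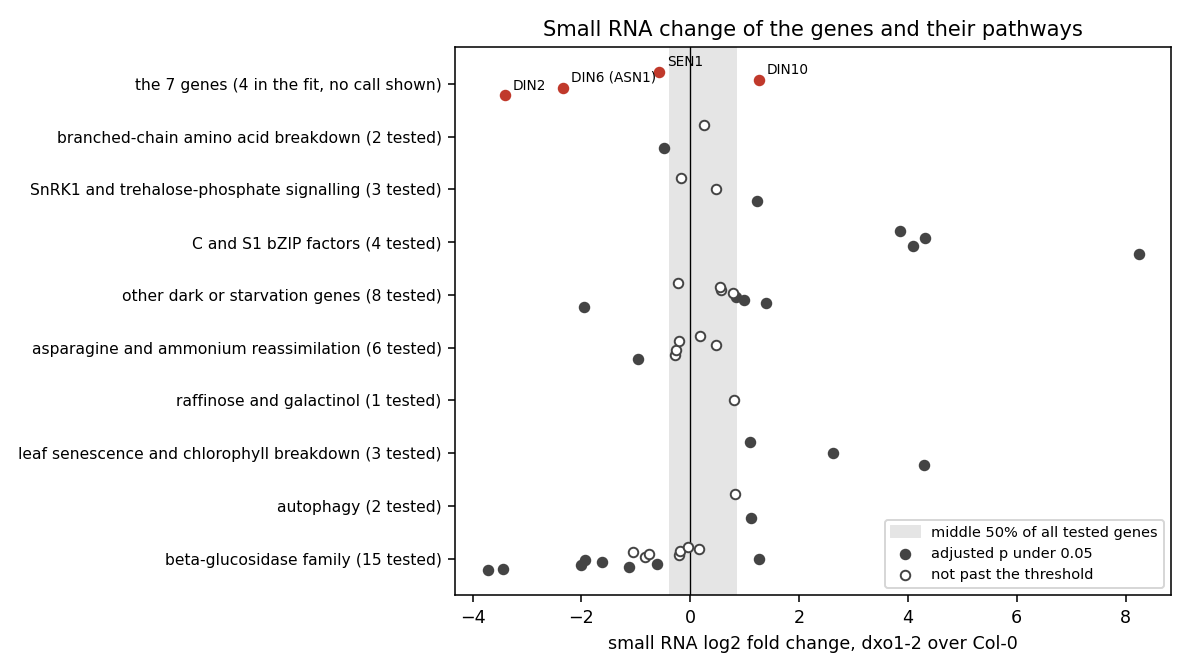
Small RNA log2 fold change, dxo1-2 over Col-0 (x axis), of each tested gene of the 7 (top row, red) and of the pathway lists (rows). In the lists filled points passed an adjusted p of 0.05 and open points did not, the 7 genes are drawn without a call, and the grey band holds the middle 50% of all tested genes. DIN2 and ASN1 lie left of the band beside several beta-glucosidase genes, and the bZIP genes lie far to the right.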

How the data were processed

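The authors deposited a table of raw counts for each library, holding 37184 genes and 5 summary lines. The tools named in the submitters' processing notes were bedtools, Bowtie, DESeq2, HTSeq and HISAT2, with build TAIR10 and no roles or settings. Libraries were grouped by title. The labels call the replicates biological. Summary lines (72.5% to 77.8% of small RNA and 21.0% to 22.6% of RNA-seq lines) stayed out of tests. Symbols and gene order came from a RefSeq table of TAIR10.1, which matched 36899 identifiers. Its coordinates were not used as positions, and no sequences were used.

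Small RNA counts of dxo1-2 and Col-0 were compared in edgeR 4.0.16 under R 4.3.3 (quasi-likelihood test, two-sided). Counts were scaled by TMM, genes passed the default filter, and the model held only genotype. P-values were adjusted by Benjamini-Hochberg over 11534 genes, with a threshold of 0.05. The SE divides the log2 fold change by the root of the F statistic. RNA-seq CPM are per gene count, of which 48.2% to 49.1% were plastid and mitochondrial. Alternatives used DESeq2 1.42.0, limma 3.58.1, other scalings and filters, and left-out libraries.

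The 7 genes and the lists were chosen with earlier results of these data known. Named by rule were the 7 genes, the 2 genes of each list with the smallest adjusted p, the 3 closest profiles, and neighbours averaging 50 counts or more. Other genes were named after their values were seen. Same-numbered libraries had correlated deviations of 0.131, -0.104 and -0.0453, so numbers were not taken as pairs.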

Additional observations from a re-analysis of the deposited data

How the results depend on the processing

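Settings were changed 1 at a time. The values of the 7 genes are descriptions, since this contrast was in view when they were chosen. Leaving out each library in turn gave -3.56 to -3.24 for DIN2, -2.65 to -2.08 for ASN1, 0.99 to 1.47 for DIN10 and -0.77 to -0.33 for SEN1. With all lines as library size SEN1 was at 0.0039. Genes higher numbered 6828 with all lines and 4703 with library totals alone (3093 as reported), and genes lower 502 and 809 (2651). The share of higher calls was 93.2% and 85.3% (53.8% as reported), and the median of all genes 0.55 and 0.32 (-0.02). Without any filter that median was 0.28. Over the lists 8 to 16 genes rose and 10 to 11 fell as single libraries were left out, and 19 rose with all lines. With all lines AT2G26800 was at 0.09 and GLT1 at 0.29, and GLT1 was at 0.06 with library totals alone. With the replicate block 2913 genes were higher and 2571 lower, DIN2 was at -3.41, ASN1 at -2.30, DIN10 at 1.24 and SEN1 at -0.60, and of the named genes TPS5 and AT3G59950 lost their calls (adjusted p = 0.0829 and 0.0681). On nuclear counts alone the RNA-seq means were 5.35 CPM for DIN2, 36.6 for DIN3, 32.1 for DIN4, 169 for ASN1, 71.7 for DIN10, 0.413 for DIN11 and 39.3 for SEN1. The small RNA depth limits DIN3, DIN4 and DIN11.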
